A study of Mus musculus with 4 samples.

Results

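A set of 38 genes that act at the entry into meiotic prophase, in chromosome synapsis and in recombination was followed in RNA-seq libraries of mouse embryonic ovaries at stage E13.5. The genes were chosen by name for their known roles, with earlier results of these data known. Of the 38 genes, 37 had a row in the table of 34682 gene symbols, 36 had at least 1 count, and all 36 passed the filter on low counts that left 15442 genes for testing. Meiosin was looked for under 5 names, none of which was in the table. Rad21l, a meiotic cohesin subunit, was listed at 0 counts in each of the 4 libraries, as was Gm14160, a further row that carries a RefSeq synonym of the same locus. Meioc, Majin and Terb1 were found under the older symbols Gm1564, 1700123I01Rik and Ccdc79.

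The libraries comprised 2 from ovaries of Sall1-overexpressing mutants and 2 from wild-type ovaries, numbered 1 and 2 in each genotype. The mutant line carries a BAC, a large genomic insert, in which the regulatory elements and promoter of Wt1 drive the coding sequence of Sall1. Wt1 is a gene of the somatic cells of the gonad. The 38 genes act in germ cells, but not all of them there alone, since somatic cells also express some, such as Sun1. The construct had been integrated with PiggyBac into female embryonic stem cells from C57BL/6J blastocysts, although another passage of the methods gives the background of the stem cells as C57BL/6J or a hybrid of C57BL/6J and 129. Clones were picked, and transgenic mice were made from them by morula aggregation, a procedure that can leave cells of the host embryo in the animal. Whether the embryos sequenced came straight from aggregation or from breeding, and from how many clones, is not given in the sources used here. Both mutant column names contain MutSall1N2, and the sources do not say what N2 stands for. For the controls the study's text names littermates in its account of the experiment and CD1 mice in its methods, and the wild-type column names contain B6. No Sall1 transgene or treatment is given for the wild-type libraries. The sources used here do not say whether a library is 1 embryo or a pool, nor what the replicate numbers stand for. In the column names the mutant and the wild-type library of a number carry neighbouring library numbers, and the sources do not say what this means, so the p-values measure only the spread between these libraries. Total counts were 11036313 in mutant 1, 14893508 in mutant 2, 17214470 in wild-type 1 and 17869840 in wild-type 2. Values are given as CPM, with library sizes scaled by TMM, and 3 counts, taken as the floor, correspond to between 0.170 and 0.272 CPM, for counting error only. Sall1 itself stood at 113 and 96.0 CPM in the mutant libraries and at 16.2 and 12.6 CPM in the wild-type libraries, as the labels state.

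In the mouse ovary, germ cells leave their mitotic cycles and enter meiosis around this stage under the action of retinoic acid and BMP signals from somatic cells. The transcriptional regulators STRA8 and MEIOSIN switch on the meiotic program, and MEIOC with YTHDC2 keeps the cells from going back to mitosis. Meiotic cohesins and axis proteins then fold each chromosome into loops along an axis, SPO11 and its partners cut the DNA, DMC1 with its helpers pairs the broken ends with the homologous chromosome, and the synaptonemal complex holds the homologs together. Because whole ovaries were measured, fewer germ cells in meiosis and less RNA per germ cell cannot be told apart.

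Per length, the meiotic genes spanned about 2 orders of magnitude. Expressed as CPM per kilobase of exon and averaged over the 4 libraries, 5 of the 35 genes with an annotated length stood at 50 or more, 16 between 10 and 50, and 14 under 10. The highest level on this scale was that of Smc1b, the meiotic SMC1 subunit of cohesin, at 109, followed by Stra8 at 91.6, Rec8, the kleisin that holds sister chromatids together in meiosis, at 65.7, Stag3 at 64.2 and Hormad1 at 52.0. The lowest levels were those of Majin at 0.860, Mei4 at 1.81 and Msh5 at 1.88. Spo11, at 3.73, and Prdm9, at 4.24, were detected with at least 87 counts in every library. Rec114 has no entry in the annotation used for lengths and was left out of this ordering.

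**Figure D1:**
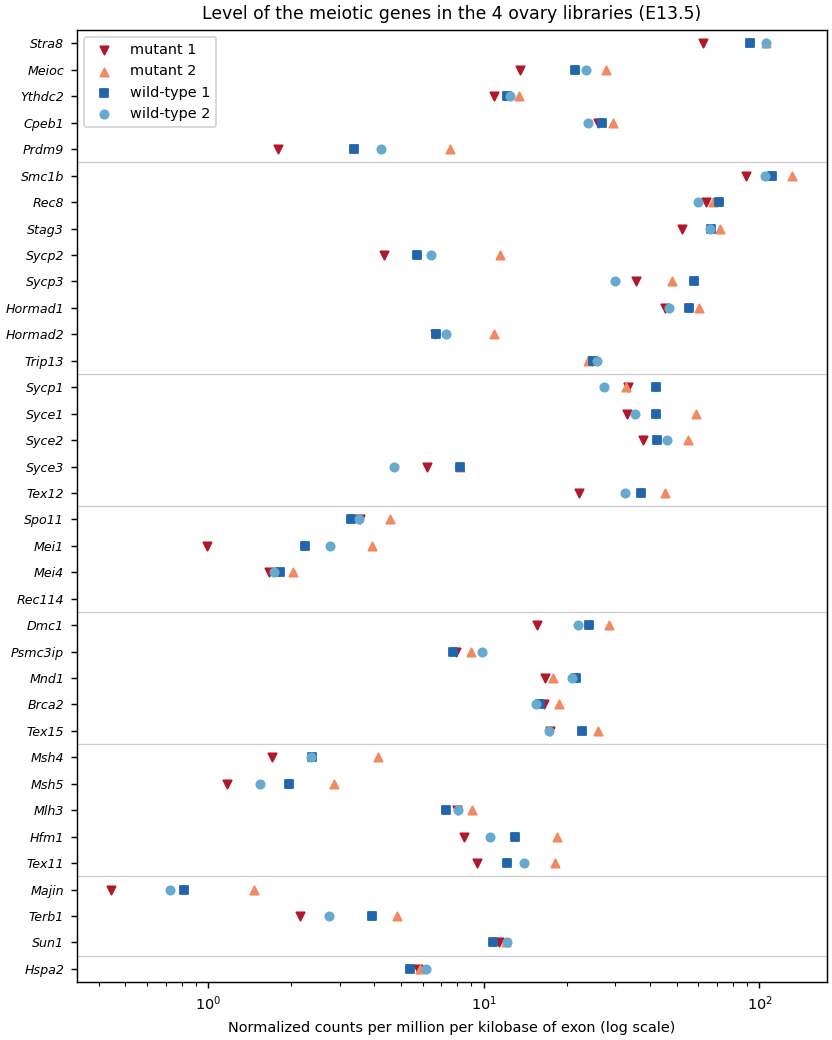
Level of each of the 35 tested meiotic genes with an annotated length in the 4 libraries, in normalized counts (CPM) per kilobase of exon on a log axis, 1 symbol per library and genes grouped by role (Rec114 has no annotated length and no symbol). Smc1b and Stra8 lie at the high end and Majin at the low end, and for most genes the triangles of mutant 1 and mutant 2 lie outside the wild-type symbols.

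The libraries did not sort by genotype for these genes. Mutant 2 was the highest of the 4 libraries for 26 of the 36 genes and mutant 1 the lowest for 22. For 21 of the 36 genes (58.3%) both held, so that the wild-type libraries lay between the mutant libraries, an order found for 11.3% of all genes tested. The summed level of the 36 genes was 2376 CPM in mutant 1 and 3340 CPM in mutant 2, against 2909 and 2716 CPM in the wild-type libraries. In this sum the mutant libraries differed from each other by more than any other pair of libraries did, and the wild-type values fell within the mutant range.

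**Figure D2:**
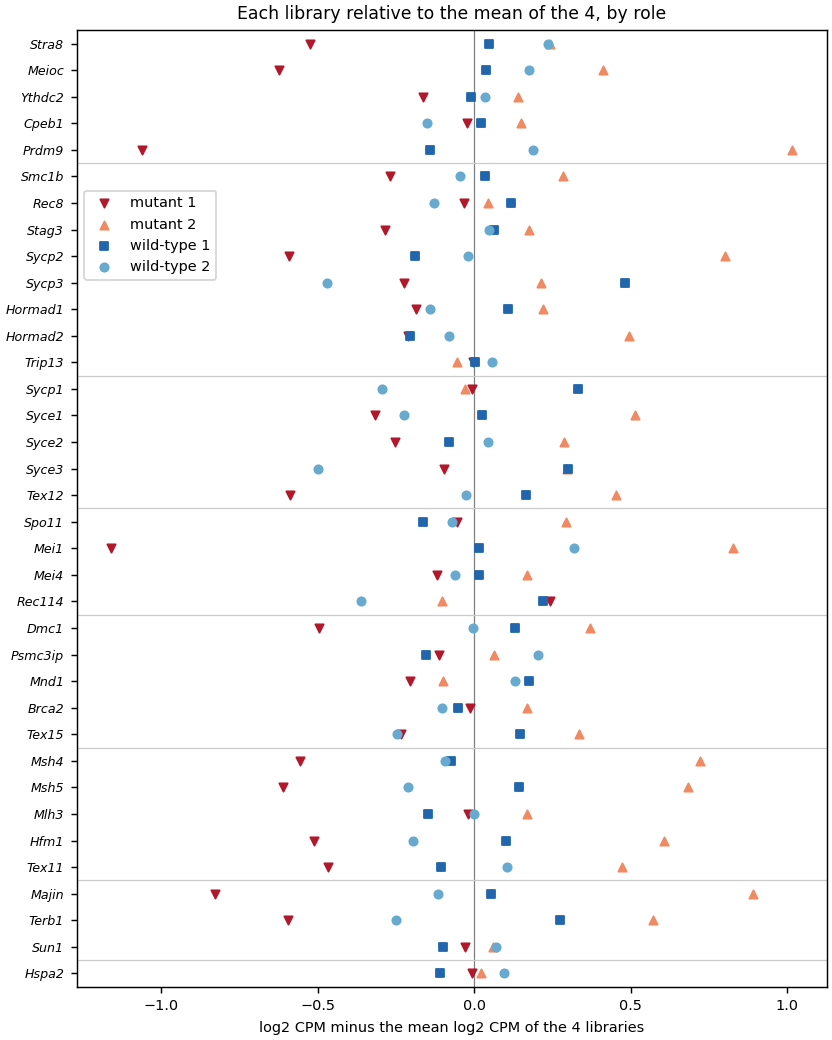
Deviation of each library from the mean log2 CPM of the 4 libraries, for each of the 36 tested meiotic genes, grouped by role. Mutant 1 (dark red) lies furthest to the left for 22 genes and mutant 2 (orange) furthest to the right for 26, with the wild-type libraries (blue) between them for 21.

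Among the genes of meiotic entry, Stra8, the retinoic acid-responsive regulator that opens the program, stood at 112 CPM in mutant 1, 191 CPM in mutant 2, 167 CPM in wild-type 1 and 190 CPM in wild-type 2. Mutant 1 was low and the other 3 libraries lay close together. Meioc, a partner of the RNA helicase YTHDC2 that stabilizes the meiotic state, showed the same low library, at 62.5 CPM in mutant 1 against 128 CPM in mutant 2, 98.7 CPM in wild-type 1 and 109 CPM in wild-type 2. Prdm9, the histone methyltransferase that marks the sites of recombination, had the widest spread of the set. It stood at 7.89 CPM in mutant 1, 33.4 CPM in mutant 2, 14.9 CPM in wild-type 1 and 18.8 CPM in wild-type 2, a 4.23-fold difference between the mutant libraries. The remaining entry genes moved little by comparison. Ythdc2 ranged from 68.4 to 84.6 CPM and Cpeb1, an RNA-binding regulator of translation in germ cells, from 99.8 to 123 CPM. All 5 measured entry genes were highest in mutant 2, and 4 were lowest in mutant 1. By GENCODE M1 coordinates (NCBIM37, the build also called mm9), Stra8 lies on chromosome 6 from 34870163 to 34889342, Meioc on chromosome 11 from 102525030 to 102543551, and Prdm9 on chromosome 17 from 15680043 to 15701318.

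The sequences before the start sites of 5 of the genes are shown, since these genes include the 3 entry genes called between the replicate numbers (Stra8, Meioc, Prdm9) and members of the synaptonemal complex whose promoters hold the motifs searched (Tex12, Sycp3). Each is the 250 bases upstream of a RefSeq start on GRCm38.p6, 5′ to 3′ on the strand of the gene, with motif matches in capitals. Prdm9 has 2 RefSeq starts, and the one shown was chosen because it holds more of the marked motifs. The capitals mark TTCCCGC or its reverse complement, a motif bound by E2F factors including the repressor E2F6, CACGTG, the E-box bound by MAX with its partners such as MGA, and CNCCTCAG, a motif described for STRA8 and MEIOSIN binding. AGGTCA, the core of many nuclear receptor sites, was marked in Stra8 only, and the match that Sycp3 also holds was left in lower case.
Stra8, chr6:34920698-34920947, plus strand: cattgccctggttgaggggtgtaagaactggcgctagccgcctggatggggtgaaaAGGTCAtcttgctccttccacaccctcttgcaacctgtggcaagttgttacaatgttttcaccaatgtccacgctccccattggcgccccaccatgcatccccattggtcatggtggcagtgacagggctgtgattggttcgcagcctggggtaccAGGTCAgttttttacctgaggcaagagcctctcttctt
Meioc, chr11:102665335-102665584, plus strand: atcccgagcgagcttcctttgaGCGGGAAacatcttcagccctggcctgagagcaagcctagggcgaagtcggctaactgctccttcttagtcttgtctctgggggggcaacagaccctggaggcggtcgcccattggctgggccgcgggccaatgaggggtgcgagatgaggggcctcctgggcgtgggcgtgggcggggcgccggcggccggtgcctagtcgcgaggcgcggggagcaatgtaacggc
Prdm9, chr17:15564355-15564604, minus strand: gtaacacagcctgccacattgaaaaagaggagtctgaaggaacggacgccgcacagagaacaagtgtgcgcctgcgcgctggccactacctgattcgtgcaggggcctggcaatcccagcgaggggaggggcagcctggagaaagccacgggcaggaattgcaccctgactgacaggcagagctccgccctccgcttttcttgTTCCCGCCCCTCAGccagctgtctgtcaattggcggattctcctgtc
Tex12, chr9:50561269-50561518, minus strand: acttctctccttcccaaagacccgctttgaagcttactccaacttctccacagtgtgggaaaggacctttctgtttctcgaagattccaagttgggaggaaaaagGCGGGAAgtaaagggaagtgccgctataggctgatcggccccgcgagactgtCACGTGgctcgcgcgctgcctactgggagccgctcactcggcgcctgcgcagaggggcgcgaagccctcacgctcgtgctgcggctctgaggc
Sycp3, chr10:88459337-88459586, plus strand: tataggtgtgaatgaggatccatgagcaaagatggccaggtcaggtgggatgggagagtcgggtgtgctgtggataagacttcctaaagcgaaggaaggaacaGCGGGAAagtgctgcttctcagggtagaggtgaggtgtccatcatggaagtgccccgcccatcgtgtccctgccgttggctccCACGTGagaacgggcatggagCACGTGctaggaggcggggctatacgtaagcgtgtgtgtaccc
In Stra8 the matches to AGGTCA begin 194 and 38 bases before the start. In Prdm9 the match to TTCCCGC begins 47 bases before the start shown and that to CNCCTCAG 41 bases before it, so that they share a base. The window at the other Prdm9 start holds neither motif. In Sycp3 the E-box occurs at 64 and at 43 bases.

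Motifs were searched on both strands in windows of 300 bases, from 250 before to 50 after the start, which RefSeq gave for 33 of the 38 genes and for 27025 genes in all. A gene was counted once if any of its windows held the motif, so genes with more starts had more chances of a match. TTCCCGC was found for 12 of the 33 genes (36.4%) and for 5.29% of all genes with a window. TCCCGC, which every TTCCCGC match also contains, was in 21 (63.6%) and in 22%. CACGTG was in 9 (27.3%) and in 8.09%, and CNCCTCAG was in 9 (27.3%) and in 9.12%. GGGCGG, the GC box, was in 19 (57.6%) and in 38.2%, and AGGTCA, added after the data were seen, was in 6 (18.2%) and in 18.1%. These shares describe letters in a window and say nothing of binding. Among the 31 genes with both a window and a tested row, the median log2 ratio of mutant 2 to mutant 1 was 0.88 for the 8 with CNCCTCAG and 0.41 for the 23 without it. It was 0.54 for the 11 with TTCCCGC and 0.34 for the 20 without, and 0.42 for the 8 with CACGTG and 0.71 for the 23 without. For the shorter TCCCGC it was 0.45 for the 20 with it and 0.71 for the 11 without, for GGGCGG 0.50 for 18 and 0.41 for 13, and for AGGTCA 0.60 for 6 and 0.46 for 25.

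Among the cohesin and axis genes, Sycp2, a core protein of the lateral element, stood at 25.9 CPM in mutant 1, 68.0 CPM in mutant 2, 34.2 CPM in wild-type 1 and 38.4 CPM in wild-type 2. Mutant 2 stood apart and the wild-type libraries were close. Its partner Sycp3 behaved differently, at 44.9 CPM in mutant 1, 60.9 CPM in mutant 2, 73.4 CPM in wild-type 1 and 37.9 CPM in wild-type 2, and the extremes were the wild-type libraries. The exons of Sycp3 share 660 bases with Chpt1 on the opposite strand, and the sources used here do not state a strand setting, so part of its counts may belong to Chpt1. Rec8 was even, at 176, 186, 195 and 165 CPM in mutant 1, mutant 2, wild-type 1 and wild-type 2. Hormad2, an axis protein that guards unsynapsed chromosomes, stood at 18.1 CPM in mutant 1, 29.6 CPM in mutant 2, 18.2 CPM in wild-type 1 and 19.9 CPM in wild-type 2, with 1 high library and 3 that lay together. Smc1b ranged from 362 to 532 CPM, Stag3 from 300 to 413 CPM and Hormad1 from 78.5 to 104 CPM, each from mutant 1 to mutant 2, while Trip13, the ATPase that removes HORMA proteins from the axis, ranged only from 54.0 to 58.3 CPM.

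Within the central region of the synaptonemal complex, Sycp1, which forms the transverse filaments, stood at 116 CPM in mutant 1, 114 CPM in mutant 2, 146 CPM in wild-type 1 and 94.6 CPM in wild-type 2. The mutant libraries were nearly equal and the wild-type libraries lay on either side. Tex12, a central element protein given here because of its promoter, stood at 13.6 CPM in mutant 1, 28.0 CPM in mutant 2, 23.0 CPM in wild-type 1 and 20.1 CPM in wild-type 2, a 2.06-fold difference between the mutant libraries. The central element genes Syce1 and Syce2 ranged from 48.5 to 86.3 CPM and from 74.2 to 108 CPM, each lowest in mutant 1 and highest in mutant 2. Syce3 had between 38 and 78 counts and was lowest in wild-type 2.

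Among the genes of break formation, Spo11, the enzyme that cuts the DNA, stood at 14 CPM in mutant 1, 17.8 CPM in mutant 2, 13.0 CPM in wild-type 1 and 13.8 CPM in wild-type 2. Mutant 1 lay just above the higher wild-type library. Mei1, needed for break formation, had a spread like that of Prdm9, at 4.08 CPM in mutant 1, 16.2 CPM in mutant 2, 9.24 CPM in wild-type 1 and 11.4 CPM in wild-type 2. The mutant libraries differed 3.97-fold, and the wild-type libraries lay between them. Rec114, a partner of MEI4, went the other way, at 8.62 CPM in mutant 1, 6.78 CPM in mutant 2, 8.49 CPM in wild-type 1 and 5.67 CPM in wild-type 2, so that both libraries numbered 1 were above both numbered 2. Mei4 ranged from 7.62 to 9.31 CPM, and 186 bases of its exons overlap Gm16875 on the opposite strand.

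Of the genes of strand exchange, Dmc1, the meiotic recombinase, stood at 34.5 CPM in mutant 1, 62.8 CPM in mutant 2, 53.2 CPM in wild-type 1 and 48.5 CPM in wild-type 2. Mutant 1 was the low library and mutant 2 the high one. Mnd1, which with Psmc3ip helps DMC1 find the homolog, was lower in both mutant libraries, at 14.5 and 15.6 CPM, than in both wild-type libraries, at 18.9 and 18.3 CPM. Brca2, which loads recombinases, was higher in both mutant libraries, at 177 and 200 CPM against 172 and 166 CPM. Psmc3ip ranged from 14 to 18 CPM, with 385 exonic bases shared with Mlx on the opposite strand, and Tex15 ranged from 166 to 249 CPM.

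All 5 crossover genes were highest in mutant 2, and 4 were lowest in mutant 1. Tex11, an X-linked gene whose product promotes crossing over, stood at 34.1 CPM in mutant 1, 65.5 CPM in mutant 2, 43.8 CPM in wild-type 1 and 50.7 CPM in wild-type 2. Hfm1, a helicase of the crossover pathway, stood at 56.3 CPM in mutant 1, 122 CPM in mutant 2, 86.3 CPM in wild-type 1 and 70.1 CPM in wild-type 2, and the mutant libraries differed 2.17-fold. The MutS partners Msh4 and Msh5, which stabilize crossover intermediates, differed 2.43-fold and 2.46-fold between the mutant libraries, from 6.99 to 16.9 CPM and from 6.44 to 15.8 CPM. Mlh3, part of the enzyme that resolves crossovers, ranged only from 40.3 to 50.2 CPM. Hfm1, Msh4 and Msh5 were chosen for this account after their values were seen.

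Of the genes that tether telomeres to the nuclear envelope, Majin and Terb1 were lowest in mutant 1 and highest in mutant 2. Majin had 8, 36, 23 and 21 counts in mutant 1, mutant 2, wild-type 1 and wild-type 2, which is 0.726, 2.39, 1.34 and 1.19 CPM. With so few counts, the 95% counting interval of its log2 ratio of mutant 2 to mutant 1 reached from 0.59 to 3.04. Terb1, its partner, was measured at 8.08 CPM in mutant 1 and 18.1 CPM in mutant 2, with 14.8 and 10.3 CPM in the wild-type libraries. Sun1, the envelope protein of the same complex that somatic cells also express, ranged only from 81.9 to 92.2 CPM, and the chaperone Hspa2 stood at 14.5 and 14.8 CPM in the mutant libraries and at most at 15.6 CPM in the wild-type.

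The comparison of mutant with wild-type ovaries asked whether Sall1 in somatic cells of the ovary went with a change of the meiotic genes. None of the 36 genes passed an adjusted p of 0.05 by edgeR's quasi-likelihood F-test, whereas 9 of all 15442 genes did (0.0583%). At an unadjusted p under 0.05 the count was also 0 of 36, against 878 of all genes (5.69%). DESeq2 called 0 of the 36, beside 105 of the 14480 genes to which it gave an adjusted p. The fitted log2 fold changes lay between -0.30 (Mnd1, SE 0.14) and 0.38 (Sycp2, SE 0.38), with 24 positive and 12 negative and a median of 0.060, beside -0.00088 over all genes tested. The smallest adjusted p in edgeR was 0.961, for Mnd1. The mutant libraries did not overlap the wild-type libraries for 4 of the 36 genes (Trip13, Spo11, Mnd1 and Brca2), while this held for 30.9% of all genes tested.

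Group means of the named genes show the size of the spread beside the difference. Stra8 was at 151 ± 55.6 CPM (SD, n = 2) in the mutant against 178 ± 16.3 CPM (SD, n = 2) in the wild-type, with a log2 fold change of -0.23 (SE 0.23). Prdm9 was at 20.6 ± 18 CPM (SD, n = 2) against 16.8 ± 2.70 CPM (SD, n = 2), with a log2 fold change of 0.31 (SE 0.54). For each of these genes the SD of the mutant libraries exceeded the difference of the means. Dmc1 was at 48.6 ± 20.0 CPM (SD, n = 2) against 50.9 ± 3.35 CPM (SD, n = 2). Rec8, which varied little, was at 181 ± 6.77 CPM (SD, n = 2) against 180 ± 21.7 CPM (SD, n = 2), with a log2 fold change of 0.0075 (SE 0.11). Mnd1 was at 15.1 ± 0.780 CPM (SD, n = 2) against 18.6 ± 0.415 CPM (SD, n = 2), and its difference was larger than these SDs but did not pass the test. The smallest p that an exact permutation test (two-sided) of any gene could reach with these 4 libraries is 0.333.

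The result depended on which mutant library was kept. Without mutant 1, edgeR called 2 of the 36 genes, beside 130 of all 16049 tested there (0.81%). They were Prdm9 and Sycp2, both higher in the mutant, with log2 fold changes of 0.98 (SE 0.18) and 0.90 (SE 0.14) and adjusted p-values of 0.0329 and 0.0124. Without mutant 2, it called 0 of the 36, beside 38 of 16080 (0.236%), and the same genes had log2 fold changes of -1.09 (SE 0.25) and -0.49 (SE 0.16), on the other side of 0. In these fits the lone mutant library is assumed to vary like the wild-type libraries. The median over the 36 genes was 0.30 without mutant 1 and -0.23 without mutant 2.

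Set side by side within each replicate number, the ratios of mutant to wild-type had opposite signs. These are ratios of 1 library to 1 library, with 95% exact binomial intervals that cover counting error only. In number 1, 29 of the 36 genes were lower in the mutant and 7 higher, with a median log2 ratio of -0.35, and 10 (27.8%) were at least 1.5-fold lower, beside 5.91% of all genes tested. In number 2, 31 were higher and 5 lower, with a median of 0.35, and 10 (27.8%) were at least 1.5-fold higher, beside 5.71% of all genes tested. The median over all genes was -0.00027 in number 1 and -0.0043 in number 2. For 20 of the 36 genes the interval lay below 0 in number 1 and above 0 in number 2, as it did for 2.75% of all genes tested, and for 0 of the 36 the reverse held.

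Grouped by role, the median ratio was negative in number 1 and positive in number 2 for every role except the chaperone Hspa2, which had 0.10 and -0.072. Prdm9 had a log2 ratio of -0.92 (interval -1.29 to -0.56) in number 1 and 0.83 (0.63 to 1.04) in number 2. Mei1 had -1.18 (-1.69 to -0.69) and 0.51 (0.23 to 0.79), and Hfm1 had -0.62 (-0.75 to -0.48) and 0.80 (0.70 to 0.91). Sycp3, whose wild-type libraries differed most, had -0.71 (-0.86 to -0.56) and 0.69 (0.54 to 0.83). In all, 27 of the 36 genes were lower in the mutant of number 1 and higher in that of number 2. Stra8 was among them, but had -0.57 (-0.67 to -0.48) in number 1 and 0.0076 (-0.065 to 0.080) in number 2, so that only the pair numbered 1 differed beyond counting error. The other 9 genes did not show these signs. Spo11 (0.11 and 0.37 in numbers 1 and 2), Brca2 (0.038 and 0.27), Mlh3 (0.13 and 0.17) and Rec114 (0.023 and 0.26) had positive ratios in both. Mnd1, with -0.38 (-0.66 to -0.10) and -0.23 (-0.48 to 0.018), and Trip13, with -0.0057 and -0.11, had negative ratios in both. Psmc3ip (0.043 and -0.14), Sun1 (0.069 and -0.012) and Hspa2 had a positive ratio in number 1 and a negative one in number 2. The ratio in number 2 exceeded that in number 1 for 32 of the 36 genes. A fit of this difference would leave no spread among libraries to test it against, so it was not tested.

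**Figure D3:**
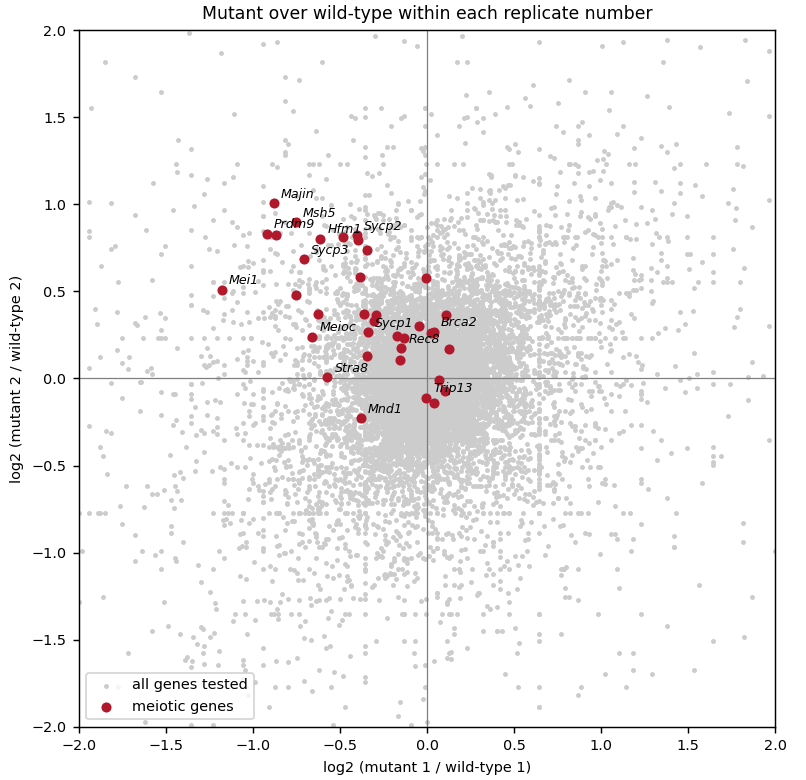
Log2 ratio of mutant 1 to wild-type 1 (horizontal) against that of mutant 2 to wild-type 2 (vertical), from normalized counts, for the 36 tested meiotic genes (red) over all genes tested (grey), with both axes drawn from -2 to 2 and grey points outside left out. Of the red points, 27 lie in the upper left, lower in the mutant of number 1 and higher in the mutant of number 2.

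The difference between libraries numbered 2 and 1 was then fitted with genotype as a term, which leaves 1 residual degree of freedom per gene. Of the 36 genes, 5 (13.9%) passed an adjusted p of 0.05 by edgeR's quasi-likelihood F-test and all 5 were higher in number 2, beside 1.56% of all genes called higher and 4.29% called in either direction. Stra8 rose by a log2 fold change of 0.47 (SE 0.11, edgeR adjusted p = 0.0244), Meioc by 0.57 (SE 0.14, adjusted p = 0.0373), Prdm9 by 1.12 (SE 0.26, adjusted p = 0.0258), Sycp2 by 0.76 (SE 0.19, adjusted p = 0.0362) and Tex11 by 0.56 (SE 0.14, adjusted p = 0.0331). Each was higher in number 2 in both genotypes, but by unlike amounts. The log2 ratio of number 2 to number 1 for Prdm9 was 2.08 in the mutant and 0.33 in the wild-type. The fit shares its estimate of spread across genes, so these SEs can be smaller than a gene's own disagreement between genotypes. Mei1, at 1.03 (SE 0.28, adjusted p = 0.0526 by edgeR), and Syce2, at 0.33 (SE 0.10, adjusted p = 0.0926), did not pass. At an unadjusted p under 0.05 there were 12 genes, 10 of them higher in number 2, with Sycp1 and Rec114 lower, beside 2682 of all genes (17.4%) in either direction and 1201 (7.78%) higher. The 5 calls rest on the scaling and the tool, since edgeR with RLE scaling called 0 (smallest adjusted p 0.0507) and DESeq2 called 0 (smallest adjusted p 0.311). Over all genes, edgeR with RLE scaling called 489 of 15442 and DESeq2 called 125 of 15773, in either direction.

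Over the 36 genes the fitted differences between numbers 2 and 1 were positive for 30 and negative for 6, with a median of 0.23 beside -0.0077 over all genes tested. The lowest were Rec114 at -0.47 (SE 0.21), Sycp1 at -0.33 (SE 0.11) and Sycp3 at -0.28 (SE 0.21), none of which passed the test. Markers of blood moved with the same numbers. Of 8 blood genes listed, 5 were tested and all 5 were called lower in number 2, beside 421 of all 15442 genes. Their summed level was 3177 CPM in mutant 1 and 869 CPM in mutant 2, with 3489 and 1679 CPM in the wild-type libraries. The near-identical adult globin genes Hba-a1 and Hba-a2 had at most 1 count in any library, and Ahsp had no row under the names tried. The part of blood RNA in the difference of the meiotic genes was not tested.

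**Figure D4:**
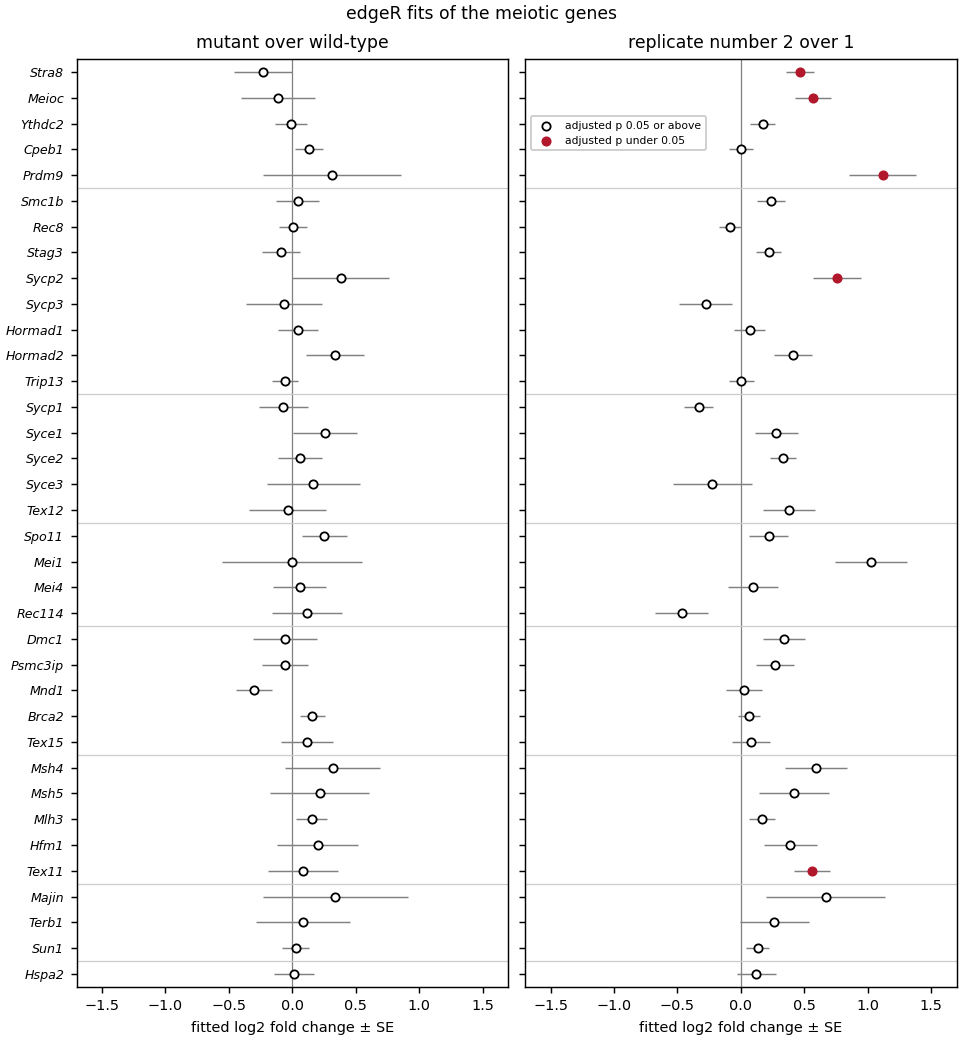
Fitted log2 fold changes with their standard errors from edgeR for the 36 tested meiotic genes, mutant over wild-type on the left and replicate number 2 over 1 on the right, filled where the adjusted p was under 0.05. No gene is filled on the left, and Stra8, Meioc, Prdm9, Sycp2 and Tex11 are filled on the right, all above 0.

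The difference between the numbers came mainly from the mutant libraries. Between mutant 2 and mutant 1, 33 of the 36 genes were higher and 3 lower, with a median log2 ratio of 0.50, and 15 (41.7%) were at least 1.5-fold higher, beside 6.15% of all genes tested. Between wild-type 2 and wild-type 1, 15 were higher and 21 lower, with a median of -0.047. None was at least 1.5-fold higher, beside 4.58% of all genes tested, and 3 (8.33%) were at least 1.5-fold lower (Sycp1, Sycp3 and Syce3), beside 6.77%. The log2 ratios of number 2 to number 1 for the 5 genes called were between 0.77 and 2.08 in the mutant and between 0.14 and 0.33 in the wild-type. Sycp2 had 1.39 (interval 1.20 to 1.59) in the mutant and 0.17 (0.0074 to 0.33) in the wild-type, and Meioc had 1.04 (0.91 to 1.16) and 0.14 (0.043 to 0.23). When 1 mutant library was left out of the fit, only the wild-type pair set the difference between the numbers. The median over the 36 genes was then -0.046, whichever mutant library was left out, which repeats the wild-type comparison above.

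Germ cell identity genes served to see how far the amount of germ cell RNA moved with these libraries. Ddx4, the RNA helicase of all germ cells at this stage, stood at 361 CPM in mutant 1, 393 CPM in mutant 2, 327 CPM in wild-type 1 and 350 CPM in wild-type 2. Over the 15 identity genes the median log2 ratio of number 2 to number 1 was 0.055 in the mutant and 0.0030 in the wild-type, edgeR called 0 in the comparison of genotypes (0 at an unadjusted p under 0.05) and 1 between the numbers, Tdrd12, lower in number 2. Of the 15, Pou5f1 and Dppa3 are also in the pluripotency list below, and Mael and Tdrd1 are also among the further genes of meiosis below. The 12 of the 15 used for scaling leave out Pou5f1, Dppa3 and Kit and keep Tdrd12. Their median log2 ratio of number 2 to number 1 was 0.12 in the mutant and -0.043 in the wild-type. The summed level of these 12 was 939, 1159, 963 and 974 CPM in mutant 1, mutant 2, wild-type 1 and wild-type 2. The sum of the meiotic genes divided by this sum was 2.53 in mutant 1 and 2.88 in mutant 2, and 3.02 and 2.79 in the wild-type libraries. With this divisor mutant 1 remained the lowest library while mutant 2 did not stand highest. All 15 identity genes summed to 1403, 1577, 1384 and 1383 CPM in the same order of libraries. The place of mutant 2 therefore depends on which identity genes form the divisor.

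When the libraries were scaled by these 12 genes instead of by TMM, the median over all genes became -0.10 between genotypes and -0.16 between numbers. Beside these, the median of the 36 meiotic genes became -0.072 between genotypes and 0.070 between numbers. On that scale 2 of the 36 genes were called higher in number 2, Prdm9 and Mei1, beside 47 of all genes (0.304%). Then 11 of the 36 were at least 1.5-fold higher in mutant 2 than in mutant 1, beside 2.88% of all genes tested. Of the 36, 9 were at least 1.5-fold lower in mutant 1 than in wild-type 1, beside 5.47%, and 2 were at least 1.5-fold higher in mutant 2 than in wild-type 2, beside 3.01%.

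Genes of the pluripotency network, which germ cells switch off as they enter meiosis, moved opposite to the meiotic genes between the mutant libraries. All 13 tested were lower in mutant 2 than in mutant 1, beside 8146 of all 15442 genes tested, with a median log2 ratio of -0.31. In the wild-type, 10 of 13 were lower in number 2 than in number 1, beside 7738 of all genes tested. Between the numbers 3 were called, all lower in number 2, beside 421 of all 15442 genes called lower. Tfap2c fell by 0.56 on the log2 scale (SE 0.11, edgeR adjusted p = 0.00779), Dppa5a by 0.48 (SE 0.095, adjusted p = 0.00888) and Sox2 by 0.46 (SE 0.11, adjusted p = 0.0254). Dppa5a stood at 171 CPM in mutant 1, 108 CPM in mutant 2, 131 CPM in wild-type 1 and 107 CPM in wild-type 2. By edgeR 0 of the 13 were called in the comparison of genotypes, also at an unadjusted p under 0.05, and the median there was 0.12.

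Further genes of meiosis outside the set, 57 by name, of which 54 were tested, had a smaller median shift between the mutant libraries. By edgeR 0 were called between genotypes (1 at an unadjusted p under 0.05), and 1 of 54 was called between numbers. This was Meiob, a single-strand DNA binding protein of recombination, at 0.726, 5.32, 1.51 and 3.0 CPM in mutant 1, mutant 2, wild-type 1 and wild-type 2, with a log2 fold change of 1.76 (SE 0.41, edgeR adjusted p = 0.0231). The median log2 ratio over the 54 was 0.25 for mutant 2 over mutant 1 and -0.095 for wild-type 2 over wild-type 1. Of the 54, 20 (37%) were highest in mutant 2 and lowest in mutant 1, beside 11.3% of all genes tested. At least 1.5-fold higher in mutant 2 were 13 (24.1%) over mutant 1, beside 6.15%, and 12 (22.2%) over wild-type 2, beside 5.71%. Dazl, which licenses germ cells for meiosis, had 618, 748, 648 and 777 CPM in the same order of libraries and did not pass (log2 fold change 0.27, SE 0.077, edgeR adjusted p = 0.0648).

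Of the retinoic acid and BMP pathways 27 genes were tested, which include receptors, effectors and targets besides enzymes and ligands. By edgeR 0 were called between genotypes, although 8 had an unadjusted p under 0.05, beside 5.69% of all genes tested. Aldh1a2, the main enzyme of retinoic acid synthesis, stood at 78.8 and 60.6 CPM in the mutant libraries and at 137 and 146 CPM in the wild-type libraries, with a log2 fold change of -1.03 (SE 0.14, edgeR adjusted p = 0.106). The BMP ligand gene Bmp2 stood at 25.0 and 21.9 CPM against 42.7 and 38.5 CPM (log2 fold change -0.80, SE 0.13, edgeR adjusted p = 0.167), and Bmp5, of whose 4025 exonic bases 1878 overlap Gm16662 on the opposite strand, at 1.63 and 1.13 CPM against 5.87 and 5.50 CPM. Aldh1a3, a further enzyme of the same step, stood higher in the mutant libraries, at 17.8 and 26.5 CPM against 8.83 and 11.0 CPM, with an edgeR adjusted p of 0.266. The groups did not overlap for 12 of the 27 genes, these 4 among them, beside the 30.9% of all genes given above. Between the numbers 1 of the 27 was called, Msx2, a BMP target, lower in number 2 by 0.54 on the log2 scale (edgeR adjusted p = 0.0410). Of the 10 repressors of meiotic genes, edgeR called 0 in either comparison (2 between genotypes and 1 between numbers at an unadjusted p under 0.05), and E2f6 ranged from 51.3 to 63.1 CPM.

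**Figure D5:**
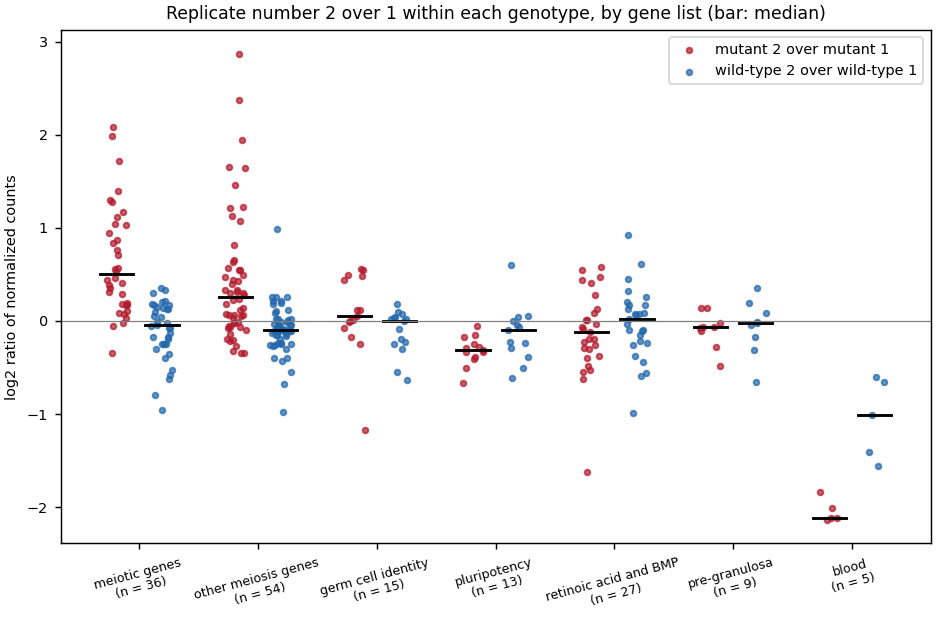
Log2 ratio of number 2 to number 1 in the mutant libraries (red) and in the wild-type libraries (blue), for the genes of 7 lists, 1 point per gene and a bar at the median. The median of the meiotic genes is 0.50 in the mutant and -0.047 in the wild-type, that of the pluripotency genes -0.31 and -0.10, and that of the blood genes -2.12 and -1.01.

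Besides blood, markers of other cell types of the ovary and its surroundings were read. Of 9 pre-granulosa genes tested, 0 were called between genotypes by edgeR (3 at an unadjusted p under 0.05), 1 was called between numbers, Runx1, lower in number 2, and the summed level was 886 and 851 CPM in the mutant and 753 and 774 CPM in the wild-type libraries. Of 6 mesonephric genes tested, Cdh16 was called higher in number 2, at 2.18, 6.38, 0.639 and 3.40 CPM in mutant 1, mutant 2, wild-type 1 and wild-type 2. None of the 6 endothelial genes and none of the 4 tested Sertoli genes was called by edgeR in either comparison, with 1 of each list at an unadjusted p under 0.05 between genotypes (Kdr and Ptgds). Amh, the defining Sertoli marker, had 3 counts in each library, and the male germ cell marker Nanos2 had between 1 and 6. The part of these cell types in the differences of the meiotic genes was not tested.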

How the data were processed

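RNA was sequenced from 4 mouse ovary libraries at E13.5, 2 per genotype. The authors aligned the reads with STAR (version 2.6.1d in the submitters' processing notes, which list the build mm9), counted them per gene with summarizeOverlaps in R and deposited raw counts per gene symbol. The annotation and the strand setting are not given in the sources used here. Every column was matched to a library by genotype and replicate number, and 0 columns were unused.

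Counts were fitted with edgeR 4.0.16 in R 4.3.3, with TMM scaling, filterByExpr, the quasi-likelihood F-test and Benjamini-Hochberg adjustment over all 15442 genes tested, at an adjusted p under 0.05. A first fit held genotype alone. A second fit held genotype and replicate number. SEs are the log2 fold change divided by the root of the F value. Ratios between pairs of libraries were taken from TMM-scaled counts, with 95% exact (Clopper-Pearson) intervals. PCR duplicates are not independent molecules, so intervals and the floor of 3 counts cover counting error only. A difference of 1.5-fold was used to count genes between pairs of libraries. The fits were tested on simulated counts.

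The members and the gene lists were chosen with earlier results of these data known. Values in all 4 libraries are given for genes past the threshold, for the 3 largest and 3 smallest fitted changes in each fit and for a fixed group of well-known members. Other genes given in full were chosen after their values were seen, as was AGGTCA among the motifs. Of non-members, up to 4 per list with the smallest p were eligible, besides Ddx4, E2f6, Amh and Nanos2. Gene positions and exon lengths come from GENCODE M1 on NCBIM37, and synonyms and promoter sequences from RefSeq (GRCm38.p6), where 3 genes were matched through a synonym. Alternatives were DESeq2 1.42.0, RLE and upper-quartile scaling, scaling by 12 germ cell identity genes, no filter, at least 10 counts in every library, the likelihood ratio test, a threshold of 0.1, the replicate number as a block, no genotype term, leaving out each library, and, added after the data were seen, other fold thresholds and scalings for the pairs of libraries.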

Additional observations from a re-analysis of the deposited data

How the results depend on the processing

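Between genotypes, 0 of the 36 genes were called under each alternative except leaving out a library, where the count ranged from 0 to 2. With the replicate block, edgeR also called 0 (smallest adjusted p 0.307, for Stra8, and a median log2 fold change of 0.041), against 385 of all genes with the block and 9 without it. The labels do not say that the numbers pair the libraries, whose deviations from the group means correlated at 0.481 across genes within a number. Of the 36 log2 fold changes between genotypes, 24 were positive and 12 negative, which became 14 and 22 with germ cell scaling and 22 and 14 with upper-quartile scaling. Among the 15 genes followed under each alternative, those that changed sign were Mei1 at 0.00066 with RLE scaling and 0.0012 with at least 10 counts in every library, Rec8 at -0.0039 with upper-quartile scaling, -0.00090 with no filter and -0.098 with germ cell scaling, Tex11 at -0.066 with germ cell scaling, and Prdm9 at -0.042 with the replicate block in DESeq2. Leaving out each library in turn, they ranged from -0.67 to 0.096 for Stra8, from -0.73 to 0.30 for Meioc, from -1.09 to 0.98 for Prdm9, from -0.099 to 0.14 for Rec8, from -0.49 to 0.90 for Sycp2, from -0.46 to 0.49 for Sycp3, from -0.073 to 0.63 for Hormad2, from -0.34 to 0.28 for Sycp1, from -1.34 to 0.65 for Mei1, from -0.14 to 0.44 for Rec114, from -0.56 to 0.30 for Dmc1, from -0.47 to 0.47 for Tex11 and from -0.79 to 0.92 for Majin. Mnd1 stayed negative throughout, from -0.36 to -0.25, and Spo11 positive, from 0.059 to 0.41. Between numbers, the 5 calls became 0 with RLE scaling, with no filter, with DESeq2 and with no genotype term, and 2 with germ cell scaling, where the Mnd1 difference was -0.13. Over all genes, the calls in either direction were 489 of 15442 with RLE scaling, 466 of 22242 with no filter and 125 of 15773 with DESeq2. They were 4 of 15442 with no genotype term and 355 of 15442 with germ cell scaling. The smallest adjusted p among the 36 was 0.0507 with RLE scaling, 0.0604 with no filter, 0.311 with DESeq2 and 0.275 with no genotype term, and the cause of the lost calls was not tested. Without a library this comparison has no residual degrees of freedom. The median of 0.23 became -0.046 with a mutant library left out and 0.52 with a wild-type library left out, whichever of the pair it was. With a fold of 1.25 the counts became 23 genes higher in mutant 2 than in mutant 1, 20 lower in mutant 1 than in wild-type 1, 19 higher in mutant 2 than in wild-type 2, and 2 higher in wild-type 2 than in wild-type 1. With a fold of 2 the counts of mutant against wild-type became 1 in number 1 and 1 in number 2, and with germ cell scaling the count in number 2 became 2. Majin did not reach 10 counts in every library and was not tested there. Majin, with 8 counts in mutant 1, and Syce3 are the genes for which depth limits the ratios most.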
